A study of Mus musculus with 10 samples.

Results

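Fibroblast growth factors (FGFs) are secreted ligands that act through tyrosine kinase receptors, and 10 genes of this system were followed by symbol in treated mouse skin: the ligands Fgf1, Fgf2, Fgf5, Fgf7, Fgf10, Fgf18 and Fgf22 and the receptors Fgfr1, Fgfr2 and Fgfr3. They are 10 of the 24454 genes in the count table, and all 10 had enough counts to be tested, as 15543 genes did. The RNA came from full-thickness, non-tumoral back skin of C57BL/6 mice, with 5 libraries from wild-type (WT) animals and 5 from Zfp36ΔARE knock-in animals. Zfp36 encodes tristetraprolin (TTP), a protein that binds AU-rich elements in mRNA and promotes its decay, and the ΔARE allele lacks an instability motif in the gene's own 3′-UTR in every cell of the body. Animals of both genotypes were shaved and received 400 nmol of the carcinogen DMBA in 0.2 ml acetone at 7 weeks of age. From 1 week later they received 10 nmol of the tumor promoter TPA in 0.2 ml acetone 2 times a week for 20 weeks, so untreated skin was not part of the comparison. Because the allele is systemic and whole skin was sequenced, the libraries cannot show which cell type carried a difference, and fewer cells of a type and less RNA per cell cannot be told apart.

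FGF binding, helped by heparan sulfate, brings receptors together, and the adaptor Frs2 then passes the signal to Ras and ERK, which in turn induce Sprouty and Dusp inhibitors. Fgf7, Fgf10 and Fgf22 form a subfamily that acts mostly on the epithelial form of Fgfr2. Fgf7 and Fgf10 are made largely by dermal cells, and Fgf22 is known from the inner root sheath of the hair follicle. Fgf5, made in the outer root sheath, ends the growth phase of hair, and its loss gives the long coat of angora mice. Fgf18 is known for holding follicles at rest. Fgf1 and Fgf2 lack a classical secretion signal and bind many receptor forms. Fgfr1 is mostly dermal, whereas Fgfr2 and Fgfr3 are prominent in keratinocytes. Counts per gene do not separate the splice forms of the receptors, which decide which ligands they bind.

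Because TTP recognises AU-rich sequence, the annotated 3′-UTRs were searched, on the RNA strand only, for the pentamer ATTTA and for the heptamer TATTTAT, which contains the pentamer. The heptamer occurred in 4 of the 10 genes, at 6 sites. Each site is given as 23 bases of GENCODE M21 transcript on GRCm38, with the heptamer in capitals. The Fgf2 sites lay at chr3:37407743-37407765 and chr3:37409127-37409149, the Fgf7 site at chr2:126090494-126090516, the Fgf10 sites at chr13:118789695-118789717 and chr13:118789958-118789980, and the Fgfr3 site at chr5:33736309-33736331, all on the plus strand and all in 3′-UTR exon.
Fgf2 upstream site: ttaactagTATTTATttaccaga
Fgf2 downstream site: ctaaaaatTATTTATctaaaaat
Fgf7 site: gtttatgtTATTTATaaagaaaa
Fgf10 upstream site: gggaaagtTATTTATggaatatg
Fgf10 downstream site: ttctaagtTATTTATttaatagg
Fgfr3 site: tgtaaagcTATTTATcaaccccc

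Pentamers were most frequent in Fgf2, with 17 in 5311 bases, and in Fgf7 and Fgf10, with 10 each in 1624 and 2799 bases. Fgfr3 held 5, Fgf5 4, Fgfr1 3, Fgf1 2, Fgf22 2 and Fgfr2 1, and the 335-base 3′-UTR of Fgf18 held 0. Fgf18 and Fgfr2 lie on the minus strand, and their RefSeq spans reach chr11:33116970 and chr7:130162451. The 3′-UTRs searched ended before that, at 33117430 and 130163709, and the sequence beyond was not searched. For Fgf10, on the plus strand, the search likewise ended at 118792115, whereas the RefSeq span reaches chr13:118792573. Among 3′-UTRs of similar length (within 25%), the median number of pentamers was 9 for Fgf2, 4 for Fgf10 and 2 for Fgf7, and the heptamer was present in 63.9%, 48.6% and 34.9% of them. Over 14297 tested genes with an annotated 3′-UTR, 66.3% held the pentamer and 27.8% the heptamer. The shares were close to these among genes lower in Zfp36ΔARE skin (66.0% and 27.3%) and among genes higher there (66.9% and 28.9%). A match describes the annotated letters and is not a measured binding site.

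The comparison between genotypes asked which transcripts of treated skin differed when Zfp36 was raised from its own locus. Zfp36 itself ranged from 1824 to 2496 normalized counts in WT and from 4196 to 6134 in Zfp36ΔARE libraries (log2 fold change 1.33, SE 0.12, adjusted p = 0.0019, edgeR). Normalized counts here are counts rescaled with edgeR's TMM factors to one library size. Libraries held 19595035 to 36419573 counts. Keratinocyte and dermal transcripts were abundant, with means of 110363 normalized counts for Krt5 and 53314 for Col1a1. Of 4 genes on the Y chromosome (Uty, Kdm5d, Eif2s3y, Ddx3y), each had 0 or 1 counts in every WT library and in Zfp36ΔARE replicate 1, and 300 to 1648 counts in Zfp36ΔARE replicates 2 to 5. Xist, the RNA of the inactive X chromosome, had 14829 to 28087 counts in the first set and 4 to 15 in the second. Sex and genotype therefore largely coincided in these libraries. A value against Zfp36ΔARE replicate 1 alone is given for Fgf2, Fgf22, Fgfr1 and Fgf5 and, among the alternative fits, for Fgf1. With 1 library on that side, the part of sex in the difference was not tested for any gene, called or not. WT replicates 1 and 3 also stood apart in hair follicle genes, as described below.

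Of the 10 genes, 3 differed between genotypes at an adjusted p under 0.05, against a background of 34.3% of all tested genes. Fgf22 was higher in Zfp36ΔARE skin, against a background of 15.3% of genes called higher, and Fgf2 and Fgfr1 were lower, against 19.1% called lower. Only Fgf22 also passed a fold change of 2, as 8.31% of tested genes did. The libraries of both genotypes did not overlap for 2 of the 10, Fgf2 and Fgfr1, and for 23.1% of tested genes. These shares are near the background, and the values of the single genes follow.

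**Figure D1:**
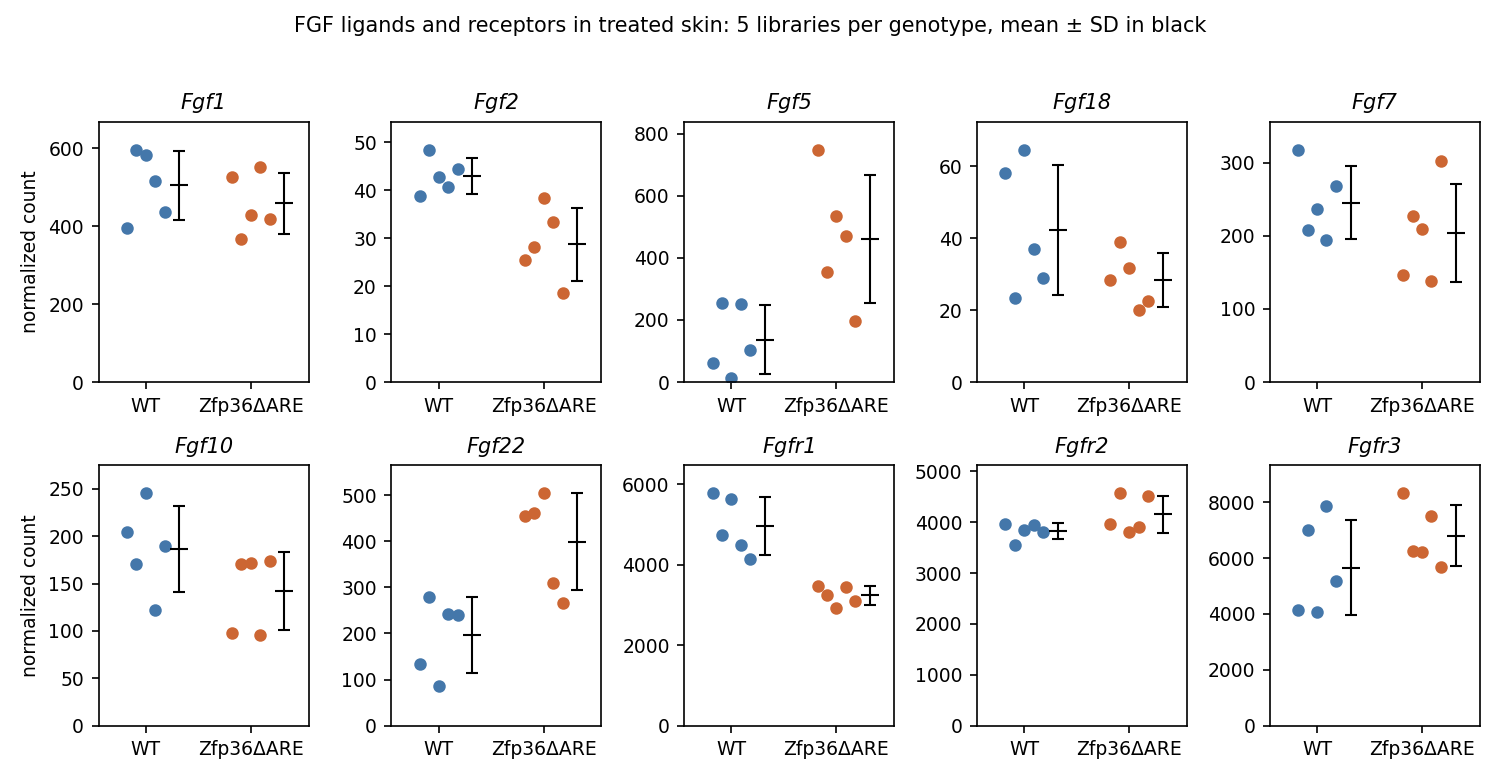
Normalized counts (vertical axis of each panel, from 0) of the 10 FGF genes in 5 WT libraries (blue) and 5 Zfp36ΔARE libraries (orange), with the mean and SD in black. Fgfr1 and Fgf2 sit lower in every Zfp36ΔARE library than in any WT library, whereas Fgf5 and Fgf22 have higher means there but share part of their range.

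Fgf5, the ligand that ends hair growth, had the largest log2 fold change of the 10, and it fell just short of the test. Its normalized counts were 60.8, 256, 12.2, 250.4 and 103 in WT replicates 1 to 5 and 749, 353, 535, 470 and 198 in Zfp36ΔARE replicates 1 to 5. WT replicates 1 and 3 were the lowest, and the groups overlapped only through Zfp36ΔARE replicate 5, which lay under WT replicates 2 and 4. The log2 fold change was 1.74 (SE 0.62, adjusted p = 0.051, edgeR), with an interval of 2 standard errors from 0.50 to 2.99. DESeq2 put the same counts past the threshold (log2 fold change 1.76, adjusted p = 0.036). Without WT replicates 1 and 3 the edgeR value was 1.18 (adjusted p = 0.10), and against Zfp36ΔARE replicate 1 alone it was 2.45 (adjusted p = 0.32). The gene lies at chr5:98254184-98277033 in the RefSeq annotation of GRCm38.

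Fgf22, the inner root sheath ligand, was the only FGF gene called higher by edgeR. WT libraries held 134, 279, 86.6, 243 and 240.4 normalized counts, and Zfp36ΔARE libraries held 454, 462, 504, 309.8 and 266. The overlap consisted of a single pair, since Zfp36ΔARE replicate 5 lay under WT replicate 2, and WT replicates 1 and 3 were again the lowest. The log2 fold change was 1.02 (SE 0.31, adjusted p = 0.029, edgeR). It was 0.65 without WT replicates 1 and 3 (adjusted p = 0.062), and the call was also lost without WT replicate 1 (adjusted p = 0.067) or without Zfp36ΔARE replicate 1 (0.057), 2 (0.064) or 3 (0.068). Against Zfp36ΔARE replicate 1 alone it was 1.21 (adjusted p = 0.33). Fgf22 lies at chr10:79755051-79757795 in RefSeq, which ends before Rnf126 starts, at 79758515. Its longer GENCODE M21 3′-UTR, to 79758596, shares 82 exonic bases with Rnf126 on the opposite strand. The log2 fold change of Rnf126 was 0.25 (adjusted p = 0.032, edgeR). Whether counting used strand, or included those bases, is not stated in the sources used here.

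The other hair cycle ligand, Fgf18, had few counts. WT replicates 1 to 5 held 58.0, 23.4, 64.7, 36.9 and 28.9 normalized counts, and Zfp36ΔARE replicates held 28.5, 38.9, 31.9, 20.0 and 22.4. The 2 highest values belonged to WT replicates 3 and 1, the libraries lowest in Fgf5 and Fgf22, and the remaining WT libraries lay within the Zfp36ΔARE range. The difference did not pass the test (log2 fold change -0.56, SE 0.31, adjusted p = 0.18), and its interval ran from -1.18 to 0.07.

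Fgf7 and Fgf10, ligands that dermal cells send to the epithelium, did not pass the test. Fgf7 ranged from 194 to 318 normalized counts in WT and from 138 to 302 in Zfp36ΔARE libraries (log2 fold change -0.27, SE 0.22, adjusted p = 0.37). Fgf10 ranged from 122 to 245 in WT and from 96.1 to 174 in Zfp36ΔARE libraries (log2 fold change -0.39, SE 0.23, adjusted p = 0.21). The intervals of 2 standard errors ran from -0.71 to 0.18 for Fgf7 and from -0.86 to 0.07 for Fgf10, and both included 0. Fgf7 holds 1 and Fgf10 holds 2 of the heptamers printed above.

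Fgf2, the ligand with the most AU-rich pentamers and with 2 heptamers, was lower in Zfp36ΔARE skin at a low count. The normalized counts were 38.7, 48.5, 42.7, 40.8 and 44.4 in WT and 25.5, 28.1, 38.4, 33.4 and 18.5 in Zfp36ΔARE libraries, from raw counts of 14 to 60. The groups did not overlap, but the highest Zfp36ΔARE value and the lowest WT value differed by less than 1 count. The log2 fold change was -0.58 (SE 0.20, adjusted p = 0.046, edgeR), and leaving out a single library lost the call in 8 of 10 cases, with adjusted p up to 0.091. Against Zfp36ΔARE replicate 1 alone it was -0.75 (adjusted p = 0.31, edgeR). The count table lists a length of 695 bases for Fgf2, against 6782 exonic bases in GENCODE M21. Of these, 640 are shared with Nudt6 on the opposite strand, whose log2 fold change was -0.23 (adjusted p = 0.21).

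Fgf1, which binds all FGF receptors, ranged from 396 to 597 normalized counts in WT and from 368 to 553 in Zfp36ΔARE libraries. The ranges lay over each other, and the log2 fold change was -0.14 (SE 0.15, adjusted p = 0.47).

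**Figure D2:**
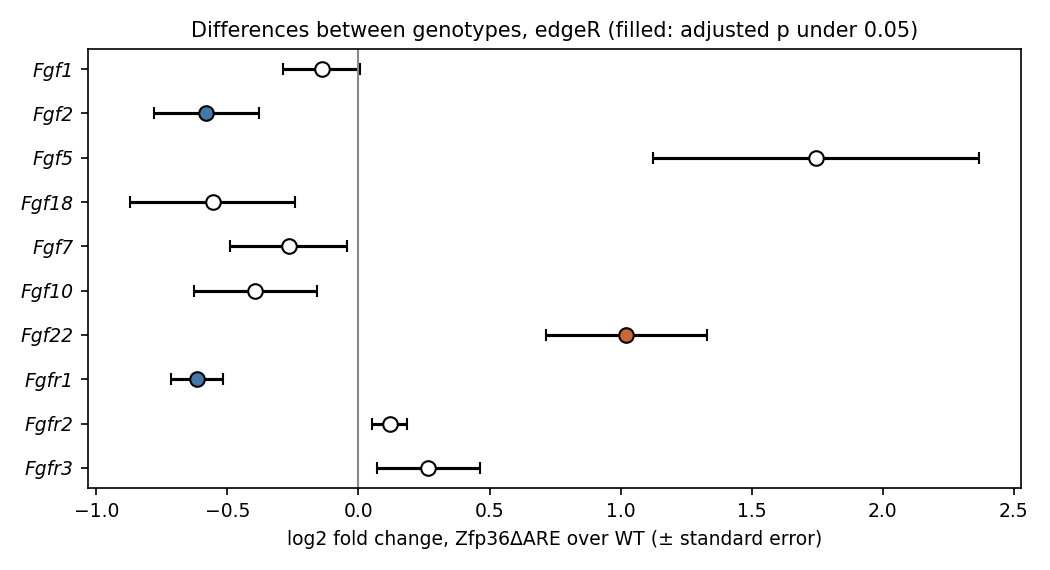
Log2 fold change of each FGF gene, Zfp36ΔARE over WT (horizontal axis), with bars of 1 standard error from edgeR; filled points passed an adjusted p under 0.05. Fgf22 is filled to the right of 0 and Fgf2 and Fgfr1 to the left, and Fgf5 has the largest estimate, 1.74, with the widest bar.

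Among the receptors, only Fgfr1 differed, and its call was kept without any 1 of the libraries. Its normalized counts were 5780, 4749, 5648, 4502 and 4138 in WT and 3478, 3247, 2928, 3450 and 3095 in Zfp36ΔARE libraries. Every Zfp36ΔARE library lay under every WT library, and WT replicates 1 and 3 were the highest. The log2 fold change was -0.62 (SE 0.10, adjusted p = 0.0053, edgeR), and it ranged from -0.67 to -0.56 when each library was left out (10 of 10 fits called). Without WT replicates 1 and 3 it was -0.46 (adjusted p = 0.0072), and against Zfp36ΔARE replicate 1 alone it was -0.51 (adjusted p = 0.32). Fgfr1 lies at chr8:25518759-25575718, and its 1797-base 3′-UTR held no heptamer.

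Fgfr2, the receptor for the Fgf7 subfamily in keratinocytes, varied little, from 3563 to 3976 normalized counts in WT and from 3809 to 4572 in Zfp36ΔARE libraries. Its log2 fold change was 0.12 (SE 0.07, adjusted p = 0.19), and the interval from -0.02 to 0.25 left no room for a change of the size seen in Fgfr1. Fgfr3 had 4136, 7009, 4077, 7855 and 5193 normalized counts in WT and 8318, 6259, 6219, 7521 and 5693 in Zfp36ΔARE libraries. WT replicates 1 and 3 were the lowest, the other WT libraries lay among or near the Zfp36ΔARE libraries, and the log2 fold change of 0.27 did not pass the test (SE 0.20, adjusted p = 0.30).

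Set against each other within a library, as ratios of levels per length, the receptors changed order with the lower Fgfr1. The ratios were chosen after their values were seen. They are given as a description only, and their permutation p-values are not used. The ratio of Fgfr2 to Fgfr1 was 0.65, 0.71, 0.64, 0.82 and 0.86 in WT and 1.07, 1.32, 1.22, 1.07 and 1.37 in Zfp36ΔARE libraries. Fgfr1 was thus the more abundant receptor in every WT library, and Fgfr2 in every Zfp36ΔARE library. The ratio of Fgfr3 to Fgfr1 ranged from 0.82 to 1.99 in WT and from 2.10 to 2.73 in Zfp36ΔARE libraries. The ratio of Fgfr3 to Fgfr2, neither of which was called, had a median of 1.66 in WT and 1.98 in Zfp36ΔARE skin, with overlapping ranges.

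**Figure D3:**
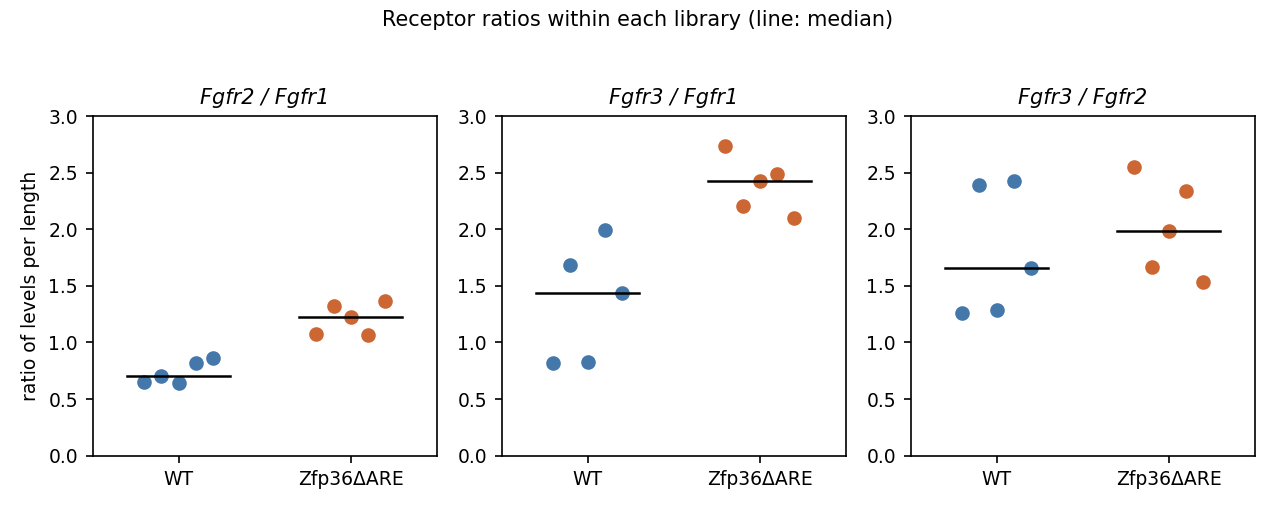
Ratios of receptor levels per length (vertical axis, no unit) within each library, 5 WT (blue) and 5 Zfp36ΔARE (orange), with the median as a line. Fgfr2 over Fgfr1 runs from 0.64 to 0.86 in WT and from 1.07 to 1.37 in Zfp36ΔARE libraries, and Fgfr3 over Fgfr2 overlaps between genotypes.

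The ligands gave 3 further ratios of levels per length, also as a description only. Fgf22 over Fgf7, an epithelial against a dermal ligand of 1 subfamily, had a median of 4.90 in WT and 12.3 in Zfp36ΔARE libraries, with ranges of 2 to 7.31 and 4.82 to 17.0. Fgf5 over Fgf18 had a median of 2.26 in WT and 10.6 in Zfp36ΔARE libraries, with ranges of 0.12 to 6.92 and 5.59 to 16.6. Both sets overlapped, and WT replicates 1 and 3 gave the lowest values of each: 2.30 and 2 for Fgf22 over Fgf7, and 0.66 and 0.12 for Fgf5 over Fgf18. The other 3 WT libraries had 6.92, 4.30 and 2.26 for Fgf5 over Fgf18. Fgf7 over Fgf10 had a median of 2.42 in WT and 2.45 in Zfp36ΔARE skin.

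Compared per length, in counts per kilobase scaled by library size (RPKM, with the lengths of the count table and TMM-scaled library sizes), the receptors were the most abundant of the 10 genes apart from Fgf22. The mean level over all 10 libraries was 53.1 RPKM for Fgfr3, 30.6 for Fgfr1 and 28.0 for Fgfr2. Fgfr3 exceeded Fgfr1 in 8 of 10 libraries, the exceptions being those with the ratios under 1 given above, and the order of Fgfr1 and Fgfr2 divided 5 to 5 by genotype. Fgf22 stood next, at 22.8 RPKM over all libraries (15.1 in WT and 30.6 in Zfp36ΔARE skin, where Fgfr2 had 29.1 and Fgfr1 24.2), but its listed length is only 489 bases against 2247 exonic bases in GENCODE M21, and its rank depends on that length. Fgfr2 exceeded it in 7 of 10 libraries, and it exceeded Fgf1 in 10 of 10. Fgf5 (4.47) did not separate from Fgf1 (4.62) or Fgf7 (3.15). It ranged from 0.18 to 11.2 RPKM between libraries, and each neighbour exceeded the next in 6 of 10 libraries. The ranges of Fgf1 and Fgf7 overlapped, although Fgf1 exceeded Fgf7 except in WT replicate 1 and Zfp36ΔARE replicate 5. Fgf2 (1.94), Fgf10 (1.35) and Fgf18 (0.84) were the lowest over all libraries, although in WT alone the mean of Fgf5 (2.04) lay under that of Fgf2 (2.32), and Fgf10 exceeded Fgf18 in 10 of 10 libraries. The place of Fgf2 also depends on its listed length, 695 bases against 6782 exonic bases in GENCODE M21.

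Hair follicle transcripts moved together with Fgf5 and Fgf22. A hair shaft score, the mean log2(CPM + 1) of 11 hair keratin genes, was 5.22, 7.60, 2.51, 8.01 and 8.01 in WT replicates 1 to 5 and 9.08, 9.47, 10.1, 9.04 and 8.83 in Zfp36ΔARE replicates 1 to 5. All 11 keratins were higher in every Zfp36ΔARE library than in any WT library, beside 23.1% of tested genes that did not overlap in either direction. Of the 11, 3 passed the test as higher, beside 15.3% of tested genes. The summed level of the 11 ran from 84.9 to 3817 CPM in WT and from 6037 to 17328 CPM in Zfp36ΔARE libraries. WT replicates 3 and 1, with the lowest scores, were the libraries with the least Fgf5 and Fgf22 and the most Fgf18. With the hair shaft score as a covariate in edgeR, the log2 fold change was 0.22 for Fgf5 (adjusted p = 0.90), 0.20 for Fgf22 (adjusted p = 0.73), -0.37 for Fgfr1 (adjusted p = 0.13) and -0.70 for Fgf2 (adjusted p = 0.29), in a fit that called 13 of 15543 genes.

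**Figure D4:**
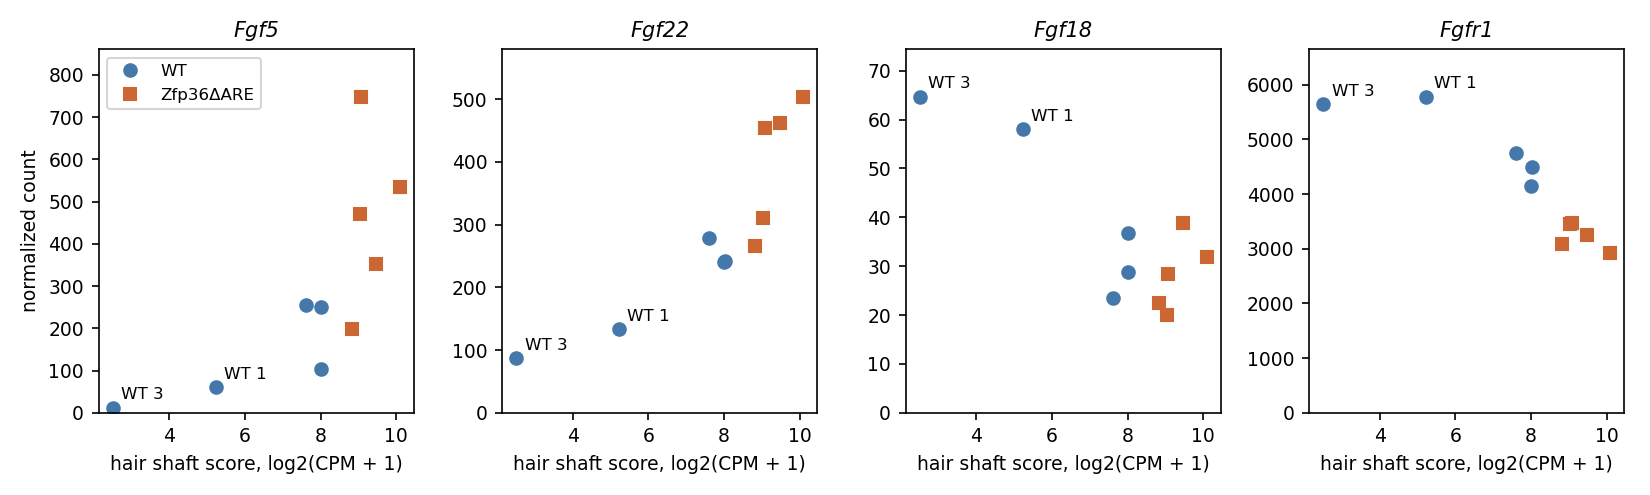
Normalized counts of Fgf5, Fgf22, Fgf18 and Fgfr1 (vertical axis, from 0) against the hair shaft score, the mean log2(CPM + 1) of 11 hair keratin genes, in 5 WT (circles) and 5 Zfp36ΔARE libraries (squares). WT replicates 1 and 3, with scores of 5.22 and 2.51, hold the least Fgf5 and Fgf22 and the most Fgf18 and Fgfr1.

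Markers of other cells of the skin were also compared. Beside the counts below, 15.3% of all tested genes were called higher, 19.1% lower, and 23.1% did not overlap between genotypes. Counts near those shares are not read as a change in that cell type. Hair matrix genes were higher for 6 of 7, melanocyte genes for 5 of 5 and dermal papilla genes for 2 of 6, and inner root sheath genes passed in 0 of 9 (edgeR) with a median log2 fold change of 1.38 and with 4 of 9 not overlapping. Fibroblast genes were lower for 5 of 8, with a summed level of 6239 to 13181 CPM in WT and 3543 to 9974 CPM in Zfp36ΔARE libraries. Adipocyte genes were lower for 5 of 7, skeletal muscle genes for 7 of 8, smooth muscle and pericyte genes for 3 of 5, endothelial genes for 6 of 7, macrophage genes for 8 of 8 and mast cell genes for 5 of 5. Schwann cell and sebocyte genes were lower for 2 of 5 each, basal keratinocyte genes for 2 of 6 and bulge and outer root sheath genes for 1 of 6. Suprabasal keratinocyte genes were higher for 1 of 5, and T cell genes passed in 0 of 6 (edgeR). With the fibroblast score as a covariate, the log2 fold change of Fgfr1 was -0.49 (adjusted p = 0.23, edgeR) and that of Fgf2 was -0.62 (adjusted p = 0.36). That fit called 0 of all genes. With the skeletal muscle score the values were -0.49 for Fgfr1 (adjusted p = 0.18, edgeR) and -0.61 for Fgf2 (adjusted p = 0.33), in a fit that called 2 of all genes. Apart from these scores and the hair shaft score, the part of cell types in the FGF values was not tested.

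The genes around the ligands and receptors were described by 5 lists holding 75 genes, of which 62 were tested. Of those 62, 8 were higher (12.9%), 14 were lower (22.6%) and 22 in all were called (35.5%), beside 34.3% of all tested genes. The median log2 fold change was 0.02 over the 62 genes and 0.01 over all tested genes. At a fold change above 2, 4 were lower (Fgf13, Fgf16, Klb and Sulf1) and 0 higher.

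Of the 15 other ligand genes, 4 were tested and 2 were lower. Fgf13, an intracellular FGF that binds sodium channels and microtubules, had 228, 128, 489, 189 and 193 normalized counts in WT and 92.9, 74.2, 95.5, 82.8 and 108 in Zfp36ΔARE libraries. The groups did not overlap, and WT replicate 3 was far above the others (log2 fold change -1.43, SE 0.32, adjusted p = 0.011, edgeR). Fgf16 was lower at a mean of 15.1 ± 1.9 against 2.80 ± 1.5 normalized counts (SD, n = 5 each; edgeR adjusted p = 0.0040), a level close to the filter, which it passed only through the WT libraries, so that it had to differ in order to be tested and is no support for the counts of lower genes. The tested ligand with the most counts, Fgf11, did not pass (log2 fold change -0.18, adjusted p = 0.40), and nor did Fgf12.

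Klb encodes beta-klotho, the co-receptor for endocrine FGFs, and fell from 103 to 348 normalized counts in WT to 33.4 to 60.7 in Zfp36ΔARE libraries, without overlap (log2 fold change -2.09, SE 0.33, adjusted p = 0.0052, edgeR). Klb is prominent in fat, and the adipocyte markers had a median log2 fold change of -1.28. The medians of other lists were as low: -1.51 for skeletal muscle, -1.37 for macrophage and -1.74 for mast cell markers. A link of Klb to any of these lists was not tested. Fgfr4 (-0.55, adjusted p = 0.14) and the short receptor Fgfrl1 (-0.27, adjusted p = 0.28) did not pass, and Kl was too low to test.

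Heparan sulfate proteoglycans and their enzymes, which hold FGFs at the cell surface, included lower genes. Of 19 tested, 8 were lower and 0 higher (edgeR), beside 19.1% and 15.3% of all tested genes, and 6 did not overlap between genotypes, beside 23.1%. Sulf1, a sulfatase that trims heparan sulfate and dampens FGF signals, ranged from 652 to 969 normalized counts in WT and from 352 to 421 in Zfp36ΔARE libraries (log2 fold change -1.10, SE 0.12, adjusted p = 0.0034). Syndecan 3 (Sdc3) fell by 0.98 on the log2 scale (adjusted p = 0.0063, edgeR), and the sulfotransferase gene Hs6st2 fell by 0.79 (adjusted p = 0.0066, edgeR). Perlecan (Hspg2), the basement membrane proteoglycan, fell by 0.52 on the log2 scale (adjusted p = 0.0082, edgeR). Gpc3, Gpc6, Sdc2 and Ext1 were the other 4. The epithelial syndecan Sdc1, with the most counts of the list, did not pass (log2 fold change 0.25, SE 0.24, adjusted p = 0.44).

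Inside the cell, 6 of 22 tested signal transducers were higher and 2 lower, beside 15.3% and 19.1% of all tested genes. The adaptor Shb ranged from 613 to 1273 normalized counts in WT and from 1329 to 1785 in Zfp36ΔARE libraries (log2 fold change 0.81, SE 0.20, adjusted p = 0.015, edgeR). The kinase gene Braf rose by 0.76 on the log2 scale (adjusted p = 0.014, edgeR) and Hras by 0.47 (adjusted p = 0.013, edgeR), and both were higher in every Zfp36ΔARE library than in any WT library. WT replicates 1 and 3 held the lowest values of Shb, Braf and Hras, and of Ptpn11. Ptpn11, which encodes the phosphatase SHP2, rose by 0.34 (adjusted p = 0.016, edgeR), and Frs2, the receptors' own adaptor, by 0.23 (adjusted p = 0.049, edgeR). The docking protein gene Gab2 fell by 0.91 (adjusted p = 0.0072, edgeR) and Frs3 by 0.56 (adjusted p = 0.042, edgeR).

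Of the feedback inhibitors and targets of the FGF and ERK pathway, 2 of 14 tested were higher and 1 lower, beside 34.3% of all tested genes called in either direction. Spred2, an inhibitor of Ras signalling, ranged from 664 to 768 normalized counts in WT and from 858 to 974 in Zfp36ΔARE libraries (log2 fold change 0.34, SE 0.06, adjusted p = 0.0054, edgeR). Flrt1 rose by 0.43 (adjusted p = 0.043, edgeR) and the transcription factor gene Etv1 fell by 0.75 (adjusted p = 0.046, edgeR), both with overlapping libraries. The transcripts most often read as a measure of FGF and ERK activity did not pass. The log2 fold change was 0.10 for Spry1 (SE 0.06), -0.03 for Spry2 (SE 0.10) and 0.02 for Spry4 (SE 0.17). It was 0.24 for Dusp6 (SE 0.19), 0.35 for Etv4 (SE 0.34) and 0.03 for Etv5 (SE 0.16). Not passing does not show that these transcripts were unchanged.

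**Figure D5:**
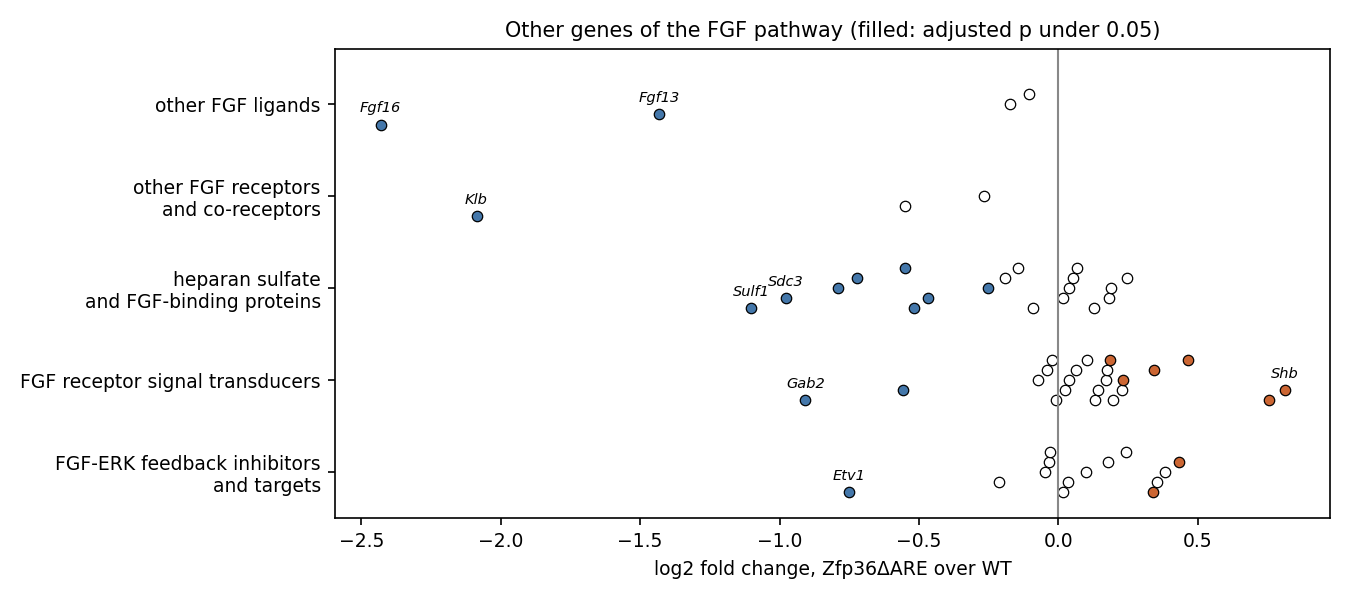
Log2 fold change, Zfp36ΔARE over WT (horizontal axis), of the 62 tested genes in 5 lists of the FGF pathway, 1 point per gene, filled where the adjusted p was under 0.05. The heparan sulfate list holds 8 filled points, all to the left of 0, and the transducer list holds 6 to the right and 2 to the left.

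By a fixed measure, the correlation of deviations from genotype means of log2(CPM + 1) over 10 libraries and 13690 genes, each FGF gene was set beside the genes most like it. For Fgf5 they were Car6 (r = 0.996), Erc1 (0.995) and Serinc5 (0.993), and for Fgf22 they were Mitf (0.989), Baz1a (0.989) and Pag1 (0.984). Fgfr1 was most like Acvrl1 (0.968), an endothelial receptor gene of the TGF-beta family, Rhoc (0.967) and Zfp287 (0.953). Fgfr3 was most like Gp1bb (0.979), and Fgfr2 most like Rnf168 (0.961). These values describe the libraries, of which WT replicates 1 and 3 deviate most in hair follicle genes, and carry no test.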

How the data were processed

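RNA-seq was made from 10 mouse skin libraries, 5 per genotype by the labels, and per the study's description each came from 1 mouse. The authors aligned paired reads with STAR 2.5.2b to mm10 and counted them per gene with featureCounts of Subread 1.5.0-p1 (versions from the submitters' processing notes), and the deposited values are raw counts. Whether counting used strand, and how reads matching several genes were treated, is not given in the sources used here. Rows with no gene name (2, holding 7.38e-05% of counts) were left out.

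TMM factors were computed from these counts and genes kept by filterByExpr (edgeR 4.0.16 under R 4.3.3), and genotype was tested with the robust quasi-likelihood test and Benjamini-Hochberg adjustment over all tested genes; a call is an adjusted p under 0.05. The procedure was tested on simulated data. Scores are means of log2(CPM + 1). Alternatives used DESeq2 1.42.0, limma 3.58.1 (voom), other scalings and filters, a replicate block, left-out libraries and marker scores as covariates. Named genes were the 10 FGF genes, Zfp36, and from each pathway list up to 3 called genes per direction with a mean of at least 50 normalized counts plus the 2 with the most counts; for each FGF gene the 3 most alike genes were taken. The values of 1 gene that this rule takes are not reported here. Other named genes were chosen after their values were seen. The genes and lists were chosen with earlier results of these data known.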

Additional observations from a re-analysis of the deposited data

Results flagged for a closer look

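In 3 of 62 groups of 5 libraries, 1 library lay far from the other 4 relative to the range of its group, beside 3.1 groups that chance gives at 1 in 20. WT replicate 3 held 489.3 normalized counts of Fgf13, with the other WT libraries between 128 and 228. The same library held 885.9 of Fgfrl1, with the others between 445 and 569. Zfp36ΔARE replicate 5 held 1329.2 of Shb, with the others between 1671 and 1785.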

How the results depend on the processing

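The 10 FGF genes were refitted under 23 alternatives, 1 of them added to the plan after seeing the data. The fit without WT replicates 1 and 3 was planned, but the labels do not single these libraries out. That choice therefore also rests on values of these data. Of the 230 values, 184 kept their direction and side of the threshold, 29 lost the call, 7 gained it and 10 changed sign. As reported, 3 FGF genes were called, 1 higher and 2 lower, with 8 pathway genes higher and 14 lower. Higher FGF genes numbered 2, with Fgf5 added, under DESeq2, limma-voom, non-robust dispersions and a minimum of 10 counts per library, and lower FGF genes numbered 1 with no filter, where Fgf2 was lost. Leaving out each library gave 1 to 3 FGF genes called, 0 to 2 higher and 1 to 2 lower. Without WT replicates 1 and 3, 1 FGF gene was called, 0 higher and 1 lower (edgeR; 4 at an unadjusted p under 0.05), with 5 pathway genes higher (Ptpn11, Shb, Hras, Braf and Spred2). The cause of these differences was not tested.

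With the replicate block, 1 FGF gene was called, 0 higher and 1 lower (edgeR; 4 at an unadjusted p under 0.05), with 4 pathway genes higher (Shb, Hras, Braf and Spred2), and Fgfr1 stayed called (log2 fold change -0.61, adjusted p = 0.027). The numbers did not pair the libraries: deviations of same-numbered libraries correlated at -0.113, -0.19, -0.161, 0.0834 and -0.188.

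With the hair shaft score as a covariate, 0 FGF genes were called (0 higher, 0 lower; edgeR, 2 at an unadjusted p under 0.05), with 0 pathway genes higher and 1 lower (Sulf1), in a fit that called 13 of 15543 genes. With the skeletal muscle score there were 0 FGF and 0 pathway genes in either direction (edgeR; 1 and 15 at an unadjusted p under 0.05, and 2 of all genes called), and with the fibroblast score 0 and 0 (1 and 13 unadjusted, and 0 of all genes called). Against Zfp36ΔARE replicate 1 alone, whose spread is assumed to be that of the WT libraries, there were also 0 and 0 (edgeR; 3 and 14 unadjusted, and 0 of 16373 genes called). Signs changed for Fgf18 (0.12 with the hair shaft and 0.39 with the muscle score), Fgfr3 (-0.11, -0.26 and -0.22 with the hair shaft, muscle and fibroblast scores), Fgf7 (0.041 with muscle and 0.18 with fibroblast) and Fgf10 (0.13 with muscle and 0.17 with fibroblast), and for Fgf1 against Zfp36ΔARE replicate 1 alone (0.060); none of these genes was called in any fit. The lowest raw counts were 14 for Fgf2 and 15 for Fgf18, and the effect of depth was not tested.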

Other observations

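Most of the other FGF ligands were near the floor of these libraries. Fgf9 reached a mean of 14.6 ± 7.2 normalized counts in WT and 8.87 ± 3.4 in Zfp36ΔARE skin (SD, n = 5 each) and was not tested, and Fgf8, a ligand of the embryo, had means of 0.19 and 0. Fgf21, an endocrine ligand that works through Klb, had means of 5.86 ± 1.2 and 9.46 ± 5.2. Flrt3, a membrane protein that binds FGF receptors, held 1528 to 4368 normalized counts in WT and 3519 to 4534 in Zfp36ΔARE libraries, with WT replicates 3 and 1 lowest, as for Fgf5, and did not pass the test (log2 fold change 0.38, edgeR adjusted p = 0.23).

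Of the genes most like each FGF gene over the 10 libraries, Lrrn3 (r = 0.966) and Alx4 (0.959) stood beside Fgf7, Sema3b (0.979) beside Fgf10 and Gadd45g (0.949) beside Fgf18. Fgf1 was most like Slc37a1 (0.958), and Fgf2 most like Chid1 (0.977). These values are a description with no test.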
